A study of Rattus norvegicus with 4 samples.

Results

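The genes described here encode the conjugating enzymes of rat liver, namely the UDP-glucuronosyltransferases (UGT), the cytosolic sulfotransferases (SULT), the cytosolic glutathione S-transferases (GST) and the microsomal glutathione S-transferases (MGST). They were chosen by symbol alone, as every gene whose name begins with Ugt1a, Ugt2a or Ugt2b, with Sult or Mgst and a digit, or with Gst, a class letter (a, m, p, t, o, k or z) and a digit. Of the 16999 named genes analysed, 57 had such a symbol, and 49 of these had a mean of at least 1 TPM (a transcript abundance scaled for gene length and library size) over the 4 libraries, among 9201 genes that reached this level. The 49 members were 8 *Ugt1a* genes, 8 *Ugt2* genes, 10 *Sult* genes, 20 cytosolic *Gst* genes and 3 *Mgst* genes. The 8 members below the limit were *Gstm6*, *Gsto2*, *Gstt4*, *Sult1d1*, *Sult4a1*, *Sult5a1*, *Sult6b1* and *Ugt2b7*, of which *Gstm6* had the highest mean, 0.564 TPM.

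Livers came from wild type rats that inhaled 4.5% sevoflurane or 6% desflurane, and were taken either at loss of consciousness (0 h, the controls) or after 6 h of anesthesia. The 4 groups, with 1 library each and so no replicate error within a group, were the control and the anesthetized liver of sevoflurane (0 h, then 6 h), followed by those of desflurane (0 h, then 6 h). The controls had also inhaled the agent briefly, and their livers were taken 6 h before those of the anesthetized rats, so the duration of anesthesia and the hour of the day cannot be told apart. Strain, sex and age, and the number of rats behind each library, are not given in the labels. The libraries held 3.497, 5.383, 5.286 and 5.567 Gb of aligned bases, in the order in which the groups are named above. This order is kept wherever 4 values follow each other.

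Conjugating enzymes attach a polar group to drugs, hormones, bilirubin and bile acids, after which transporters carry the product into bile or blood. UGT enzymes use glucuronic acid from UDP-glucuronic acid, SULT enzymes use sulfate from PAPS, and GST and MGST enzymes use the tripeptide glutathione. The liver is the main site of these reactions, and hexafluoroisopropanol, which liver forms from sevoflurane, leaves the body as its glucuronide, whereas desflurane is hardly metabolized.

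In rats, as in other mammals, each *Ugt1a* symbol has a first exon of its own, which sets the substrate, and all of them share the downstream exons. In the deposited tables (build rn6 in the submitters' processing notes) the 8 symbols lay on the plus strand of chromosome 9 between positions 95161157 and 95302822, and all ended at 95302822. Their reads can therefore belong to several symbols at once, and the 8 values were treated as measures of 1 locus.

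The promoters of the genes on which the results below turn are shown first, since these genes moved in the same direction with both agents (*Ugt1a1*, *Sult1b1*, *Sult2a6* and *Sult1e1*) or in opposite directions with them (*Gstm3l*). Each sequence is the 250 bases before the RefSeq gene start in build GRCr8, 5′ to 3′ on the strand of the gene, and its coordinates are not those of the build used for the libraries. Capitals mark matches on either strand to letters chosen for regulators of these enzymes. They were TGACNNNGC (antioxidant response), GCGTG (aryl hydrocarbon receptor), AGGTCA and AGTTCA (parts of nuclear receptor sites) and GTTAAT (part of a hepatocyte nuclear factor 1 site). *Gstm3l* was matched to the RefSeq entry *Gstm3*, which carries it as a synonym.
*Ugt1a1*, chr9:96248893-96249142, plus strand: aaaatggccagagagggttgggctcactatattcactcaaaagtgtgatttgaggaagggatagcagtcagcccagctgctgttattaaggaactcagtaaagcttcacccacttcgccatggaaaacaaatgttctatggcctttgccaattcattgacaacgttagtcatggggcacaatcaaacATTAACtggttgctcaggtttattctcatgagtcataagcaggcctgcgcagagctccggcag
*Sult1b1*, chr14:20771667-20771916, plus strand: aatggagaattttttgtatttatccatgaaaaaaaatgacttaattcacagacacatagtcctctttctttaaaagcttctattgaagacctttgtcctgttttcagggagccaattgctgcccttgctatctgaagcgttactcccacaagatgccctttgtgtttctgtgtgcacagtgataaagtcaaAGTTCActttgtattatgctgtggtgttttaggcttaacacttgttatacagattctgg
*Sult2a6*, chr1:84097809-84098058, minus strand: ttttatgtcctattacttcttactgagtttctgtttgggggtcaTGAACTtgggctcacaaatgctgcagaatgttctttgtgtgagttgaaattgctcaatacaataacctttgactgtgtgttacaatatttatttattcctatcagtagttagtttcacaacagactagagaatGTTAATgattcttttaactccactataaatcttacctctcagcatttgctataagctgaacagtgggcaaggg
*Sult1e1*, chr14:20701230-20701479, plus strand: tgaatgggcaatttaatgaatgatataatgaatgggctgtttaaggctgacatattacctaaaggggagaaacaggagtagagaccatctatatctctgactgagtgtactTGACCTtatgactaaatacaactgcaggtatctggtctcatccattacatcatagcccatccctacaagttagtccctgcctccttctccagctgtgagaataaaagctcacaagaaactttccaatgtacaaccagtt
*Gstm3l*, chr2:198300668-198300917, minus strand: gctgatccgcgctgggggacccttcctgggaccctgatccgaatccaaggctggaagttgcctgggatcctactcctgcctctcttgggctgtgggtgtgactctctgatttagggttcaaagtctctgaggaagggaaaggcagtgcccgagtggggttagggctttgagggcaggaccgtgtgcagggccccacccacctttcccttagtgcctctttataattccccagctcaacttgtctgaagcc

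The *Ugt1a1* promoter held GTTAAT on the opposite strand, 63 to 58 bases before the start. AGTTCA stood 59 to 54 bases before the start of *Sult1b1*. *Sult2a6* held AGTTCA on the opposite strand 206 to 201 bases before the start, and GTTAAT 73 to 68 bases before it. AGGTCA was found on the opposite strand of the *Sult1e1* promoter, 139 to 134 bases before the start, and the *Gstm3l* window held no match. Among 33469 rat promoters of the same length, 6.45% held GTTAAT, 12.2% AGTTCA, 14.1% AGGTCA, 10.1% TGACNNNGC and 25.9% GCGTG. These are matches of letters and say nothing on whether a factor binds there.

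The most abundant members belonged to the MGST, SULT, GST and UGT2 families. *Mgst1*, a membrane enzyme that reduces lipid peroxides, had 2771, 2621, 2882 and 2474 TPM, the highest mean of the members (2687 TPM). *Sult1e1*, the estrogen sulfotransferase, came next with 2518, 1980, 2482 and 1631 TPM. Values of *Gsta5* (921, 664, 1051 and 928 TPM) and *Gsta2* (906, 653, 1036 and 913 TPM) were nearly the same, and the spans of these alpha class genes overlap on chromosome 8, so their reads cannot be told apart. The lowest mean of a member that passed the limit was 1.35 TPM, that of *Sult2b1*. In 47 of the 49 members the level was at least 1 TPM in every library, the exceptions being *Sult2b1* and *Gsta3*. The hepatocyte markers were present in all libraries (8 of 8, summed level 96764.5 to 109903 TPM). Markers of bile duct cells (5 of 6 found, 2 with a mean of at least 1 TPM) summed to 7.05 to 8.67 TPM, with *Sox9* listed at 0 in sevoflurane 6 h. In bulk tissue fewer cells of a type and less RNA per cell cannot be told apart.

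**Figure D1:**
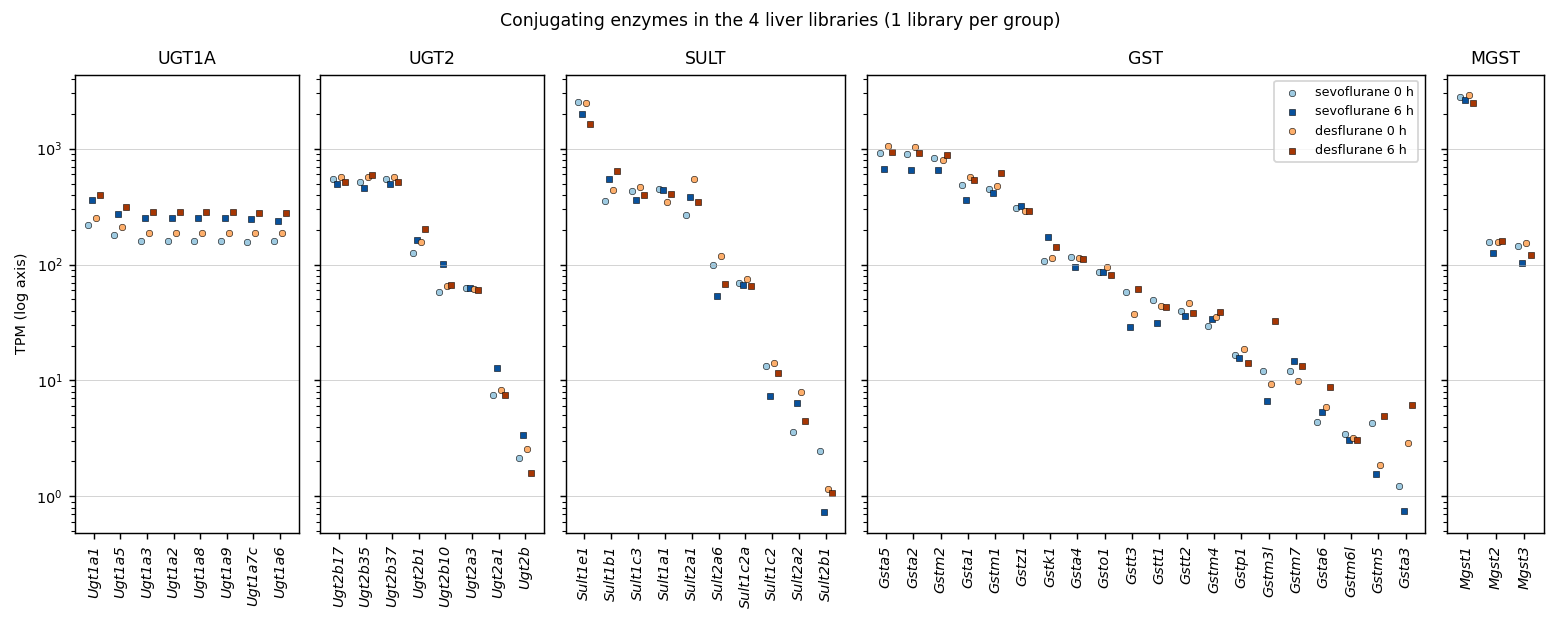
Level of each of the 49 members in the 4 libraries, in TPM on a log axis, grouped by family, 1 point per library. Members span from about 1 TPM (*Sult2b1*) to 2687 TPM (*Mgst1*) by their mean, and for most of them the 4 points lie close together relative to that span.

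Which of these enzymes differed after 6 h of each agent was the first question. Members were called higher or lower when the library with the larger value was above 2 TPM and the ratio was above 2. With sevoflurane, 0 of 49 members were higher and 2 were lower (*Gstm5* and *Sult2b1*), where 4.52% of all genes were higher and 3.31% lower. With desflurane, 3 members were higher (*Gsta3*, *Gstm3l* and *Gstm5*) and 0 lower, where the shares of all genes were 3.71% and 5.05%. Between the controls, 3 members were higher in desflurane 0 h (*Gsta3*, *Sult2a1* and *Sult2a2*) and 2 lower (*Gstm5* and *Sult2b1*), against 1.76% and 0.696% of all genes. The controls thus differed from each other in more members than either 6 h library did from its own control. Of the 5 calls made with an agent, 4 concern genes that also differed between the controls (*Gstm5* with both agents), the exception being *Gstm3l*. Each comparison with an agent shares a control library with that of the controls, so part of this overlap is built in. Its share over all genes was not computed. No test is possible with 1 library on each side.

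The change was within 1.5-fold in 28 of 49 members with sevoflurane (57.1%, against 75.8% of all genes) and in 34 with desflurane (69.4%, against 75.2%). Between the controls it was 43 members (87.8%, against 88.2%). The members past 1.5-fold include the *Ugt1a* symbols, which share their reads. On the log2(TPM + 1) scale, which is used for all log2 values here and understates the change of low genes, the median difference of the members was -0.06 with sevoflurane and -0.0035 with desflurane. Over all 9201 genes it was 0.05 and -0.10, and rescaling the libraries by the median of ratios took these to -0.0020 and -0.00078, and the median of the members to -0.12 and 0.11, so that its sign with desflurane turned. By family the median with sevoflurane was 0.66 for UGT1A, 0.20 for UGT2, -0.16 for SULT, -0.21 for GST and -0.33 for MGST. With desflurane it was 0.59, -0.06, -0.24, 0.06 and -0.22 in the same order, and among the family medians the UGT2 value with desflurane changed sign when the libraries were rescaled (0.05).

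The change common to both agents is where the design gives replication, since each agent has its own pair of libraries. It was tested with limma on all 9201 genes, blocking on the agent, which left 1 degree of freedom for the residual. The standard errors and p-values given here therefore rest mostly on a spread pooled over genes (8.34 prior degrees of freedom). Of the 49 members, 9 rose and 2 fell at 6 h (3.96% of all genes rose and 2.98% fell). The 9 were the 8 *Ugt1a* symbols, which stand for 1 locus, and *Sult1b1*. The 2 were *Sult2a6* and *Sult1e1*. At an unadjusted p under 0.05 there were 17 members, and 1727 of all genes (18.8%). The 17 include the 8 *Ugt1a* symbols and both *Gsta2* and *Gsta5*, which share their reads, so they stand for fewer measures. A share with shared reads counted once was not computed, and the 17 cannot be set directly against the share of all genes. None of the 11 members differed by as much as the ratio of 2 with either agent. With the trend left out of the moderation 0 members passed (lowest adjusted p 0.0561 by limma), as with no minimum mean (lowest adjusted p 0.110 by limma), and leaving out each library in turn gave 0 to 3 members that rose and 0 to 1 that fell (0 and 0 without sevoflurane 0 h).

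The UGT1A enzymes glucuronidate bilirubin, phenols and many drugs. *Ugt1a1*, the bilirubin enzyme, had 217 TPM in sevoflurane 0 h, 362 TPM in sevoflurane 6 h, 254 TPM in desflurane 0 h and 397 TPM in desflurane 6 h. Both 6 h libraries were above both controls, by 1.67-fold with sevoflurane and 1.57-fold with desflurane against the own control. The common change was 0.69 ± 0.12 (log2, SE, 2 pairs of libraries, adjusted p = 0.00666 by limma). The other 7 symbols rose by 0.57 to 0.63, with adjusted p between 0.0120 and 0.0184 by limma. *Ugt1a5* had 179, 271, 209 and 312 TPM and *Ugt1a6*, which takes small phenols, 159, 237, 188 and 281 TPM. *Ugt1a2* had 158, 251, 188 and 286 TPM and *Ugt1a3* 159, 253, 188 and 284 TPM. The levels of *Ugt1a7c* were 157, 248, 186 and 280.0 TPM, those of *Ugt1a8* 158, 251, 188 and 283 TPM and those of *Ugt1a9* 158, 251, 187 and 283 TPM. In all 8 symbols, which stand for 1 locus, the 6 h libraries lay above both controls. The share of all genes with such a separation was not computed. *Ugt1a2*, *Ugt1a3*, *Ugt1a7c*, *Ugt1a8* and *Ugt1a9* lay within 1.998% of each other in every library, and these values do not tell the 5 apart. *Ugt1a1* stood above the median of these 5 symbols by a factor of 1.37, 1.44, 1.35 and 1.41, and *Ugt1a5* by 1.13, 1.08, 1.11 and 1.11. The tables also list a locus assembled from the reads over the same span, 1 per library, with 254, 397, 303 and 458 TPM. On this measure, which counts each read of the locus once, 6 h was above 0 h by 1.57-fold with sevoflurane and 1.51-fold with desflurane, and the controls differed by 1.19-fold.

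**Figure D2:**
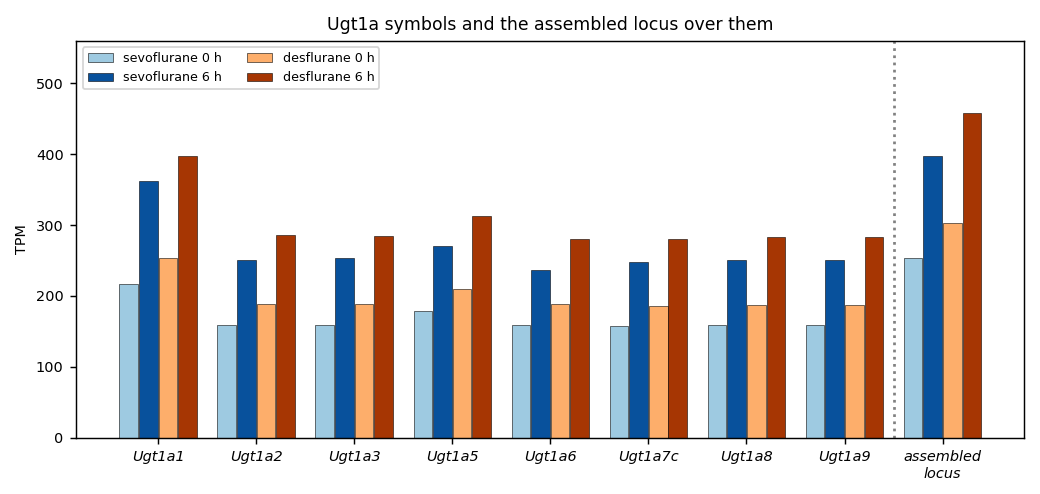
Level in TPM of the 8 *Ugt1a* symbols and of the locus assembled from the reads over the same span, in each of the 4 libraries. In every case both 6 h libraries lie above both controls, and *Ugt1a1* is the highest of the named symbols.

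The UGT2 enzymes act on steroids, bile acids and drugs, and 0 of their 8 members passed the test of the common change. The most abundant were *Ugt2b17* (550, 499, 572 and 518 TPM), *Ugt2b37* (549, 497, 571 and 514 TPM) and *Ugt2b35* (520, 454, 566 and 593 TPM). *Ugt2b17* and *Ugt2b37* have overlapping spans on chromosome 14 and differed by at most 0.763% in any library, so their reads cannot be told apart. Loci assembled over this span, which also takes in *Ugt2b* and part of *Ugt2a3*, summed to 1232, 1326, 1387 and 1356 TPM, a ratio of 6 h to 0 h of 1.08 with sevoflurane and 0.978 with desflurane where the named symbols gave 0.905 to 0.907 and 0.901 to 0.905, so the direction with sevoflurane depended on the measure. *Ugt2b1* was higher at 6 h with both agents, by 1.31-fold and 1.30-fold, with 125, 164, 156 and 203 TPM. *Ugt2b10* was apart in sevoflurane 6 h alone, at 101 TPM where the other libraries had 58.2, 65.0 and 66.1 TPM. *Ugt2a1* had the same shape at a lower level (7.56, 12.7, 8.26 and 7.53 TPM), and its span covers the other UGT2 members. *Ugt2b* was the only member called lower by the rule of size in desflurane 6 h against sevoflurane 6 h (15 of 49 members had a negative difference), with 2.16, 3.39, 2.57 and 1.58 TPM. *Ugt2a3* had between 60.9 and 63.0 TPM in all libraries.

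The SULT family held members that rose and members that fell. *Sult1b1*, which sulfates thyroid hormones and phenols, had 351 and 547 TPM with sevoflurane and 442 and 643 TPM with desflurane at 0 and 6 h. Both 6 h values lay above both controls, and the common change was 0.59 ± 0.11 (log2, SE, adjusted p = 0.0126 by limma). *Sult1e1*, which inactivates estrogens, went the other way, at 0.786 of its control with sevoflurane and 0.657 with desflurane. Its controls were close together (2518 and 2482 TPM), and it fell by 0.48 ± 0.11 on the log2 scale (adjusted p = 0.0335 by limma). *Sult1b1* and *Sult1e1* are neighbours on the plus strand of chromosome 14, at 22142420 to 22155240 and 22072025 to 22089264 in rn6. Between them lies *Sult1d1*, with a mean of 0.0459 TPM.

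*Sult2a6*, of the subfamily that sulfates hydroxysteroids and bile acids, had 98.3, 53.4, 120 and 67.7 TPM. It fell by 0.84 ± 0.13 on the log2 scale (adjusted p = 0.00499 by limma), the lowest adjusted p of the 49 members, and its 6 h values did not overlap the controls. Its span (chromosome 1, 76529121 to 76722965, minus strand) covers that of *Sult2a1*, so reads may be shared. *Sult2a1* did not follow it, with 267, 385, 543 and 348 TPM. The controls of *Sult2a1* differed by 2.03-fold, just inside the rule, and the 6 h libraries lay between them. Its log2 difference was therefore 0.53 with sevoflurane and -0.64 with desflurane, and -0.49 and 0.38 when each 6 h library was set against the control of the other agent. *Sult2a2* showed the same order of libraries at 3.57, 6.44, 7.91 and 4.51 TPM.

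*Sult2b1*, which sulfates cholesterol and pregnenolone, had 2.45 TPM in sevoflurane 0 h and 0.737, 1.15 and 1.08 TPM in the other libraries. It was called lower with sevoflurane because that control alone was high, and the sevoflurane 0 h library was also the shallowest. Of the remaining sulfotransferases, *Sult1c3* had 433, 362, 470 and 399 TPM, *Sult1a1* was between 349 and 452 TPM and *Sult1c2a* between 65.2 and 74.5 TPM. *Sult1c2*, whose span overlaps that of *Sult1c2a*, had 13.3, 7.33, 14.0 and 11.6 TPM.

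The cytosolic glutathione transferases differed between the 6 h libraries in their summed level. The summed level of all matching symbols of the family was 4451 TPM in sevoflurane 0 h, 3600 TPM in sevoflurane 6 h, 4757 TPM in desflurane 0 h and 4763 TPM in desflurane 6 h. It was thus 0.809 of the control with sevoflurane and 1.001 of it with desflurane, and desflurane 6 h was above sevoflurane 6 h by 1.32-fold. With sevoflurane 15 of the 20 members were below their control, and with desflurane 10 were above it. The signed log2 difference was higher with desflurane in 14, where a smaller fall also counts as higher. Over all genes the shares were 44.5% below with sevoflurane, 38.3% above with desflurane and 34.5% with the higher signed difference with desflurane. *Gsta2* and *Gsta5* share their reads. The locus assembled over them was at 0.664 of its control with sevoflurane and 0.788 with desflurane. The named symbols were at 0.721 with sevoflurane and 0.881 to 0.883 with desflurane. *Gstm5* is listed in duplicate, and this gene and the pair of *Gsta2* and *Gsta5* were also counted once. The sums were then 3527, 2935, 3703 and 3831 TPM (ratios of 0.832 and 1.03, and 1.31 at 6 h). Of 19 measures, 14 were below the control with sevoflurane, 10 were above it with desflurane and 13 had the higher signed difference with desflurane. The 5 alpha class measures all had the higher signed difference with desflurane (over the 6 symbols, median -0.39 with sevoflurane and -0.06 with desflurane), as had 6 of the 7 mu class members (medians -0.15 and 0.37). Of the alpha class, *Gsta1*, *Gsta2* and *Gsta4* fell less with desflurane (-0.09, -0.18 and -0.03) than with sevoflurane (-0.43, -0.47 and -0.28). The doses were 4.5% and 6%, and whether the agents differ could not be tested, since the fit has no degree of freedom left for it. In the common change 0 of the 20 members passed.

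*Gstm3l*, a mu class gene on chromosome 2, gave the highest ratio of a member with its own agent's control. It had 11.96, 6.59, 9.32 and 32.4 TPM, so desflurane 6 h was above desflurane 0 h by 3.47-fold and above sevoflurane 6 h by 4.91-fold. Only the desflurane 6 h library was apart from the others in the upward direction, and sevoflurane 6 h was the lowest. Other mu class genes of the chromosome 2 cluster differed among themselves. *Gstm5*, described below, was also called higher with desflurane, and *Gstm6*, under the limit in its mean, had 0.253, 0.149, 1.11 and 0.743 TPM. *Gstm2* had 836, 657, 792 and 881 TPM, *Gstm1* had 451, 414, 473 and 610 TPM, and *Gstm4* and *Gstm7* were between 9.90 and 38.7 TPM.

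*Gsta3*, an alpha class gene on chromosome 9, had 1.23, 0.746, 2.87 and 6.16 TPM. Both desflurane libraries were above both sevoflurane libraries, by 2.34-fold between the controls and 8.25-fold at 6 h, and desflurane 6 h was above its control by 2.14-fold. These levels rest on a mean coverage of 2.89, 2.55, 9.91 and 22.4 reads per base. *Gstm5* had 4.27, 1.55, 1.88 and 4.93 TPM, with sevoflurane 0 h and desflurane 6 h high and the other libraries low. The tables list it at a chromosome 2 position and on an unplaced contig with identical values, so the sum counts it once too often, and a single row had 2.14, 0.775, 0.940 and 2.47 TPM. Against the control of the other agent, its log2 difference was -0.18 with sevoflurane and 0.17 with desflurane, where the own controls gave -1.05 and 1.04.

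*Gstt3*, a theta class gene, had 57.4, 28.8, 37.7 and 61.1 TPM. The ratio of sevoflurane 0 h to 6 h was 1.99, just outside the rule, and *Gstt3* was called lower with sevoflurane on the FPKM scale, after median-of-ratios rescaling and after scaling to a common total without *Rn7sl1*. Desflurane 6 h was above sevoflurane 6 h by 2.12-fold. Its neighbour *Gstt1* had 49.9, 31.0, 43.5 and 43.4 TPM, with sevoflurane 6 h the lowest of the libraries. In the comparison of the 6 h libraries, *Gsta3*, *Gstm3l*, *Gstm5* and *Gstt3* were higher with desflurane and *Ugt2b* was lower (1.96% of all genes were higher and 1.58% lower). *Gstk1*, the transferase of mitochondria and peroxisomes, was above its control with both agents (107, 173, 114 and 143 TPM), with a common change of 0.51 ± 0.14 that did not pass (adjusted p = 0.0626 by limma). *Gsta1* had 487, 360, 574 and 541 TPM, and *Gsta4*, which acts on the lipid peroxidation product 4-hydroxynonenal, had 95.2 to 116 TPM. *Gsta6*, *Gstm6l*, *Gstp1*, *Gstt2* and *Gsto1* ranged from 3.03 to 94.7 TPM, and *Gstz1*, an enzyme of tyrosine breakdown, from 289 to 320 TPM.

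**Figure D3:**
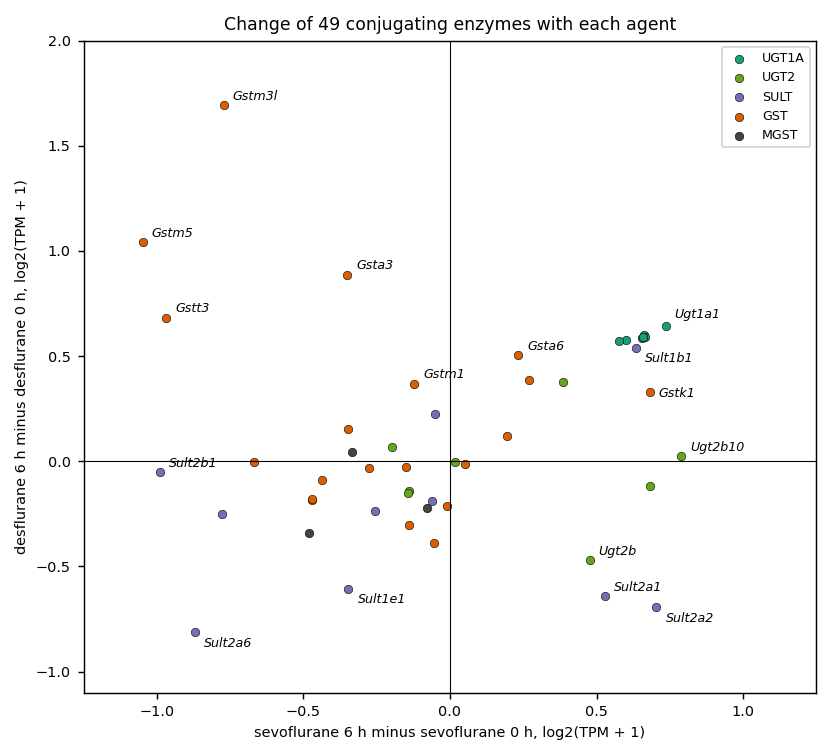
Log2(TPM + 1) difference of 6 h from 0 h with sevoflurane (horizontal axis) and with desflurane (vertical axis), 1 point for each of the 49 members, by family. The UGT1A points lie together above 0 on both axes, while *Gsta3*, *Gstm3l* and *Gstm5* lie below 0 with sevoflurane and above 0 with desflurane.

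The 3 microsomal transferases did not pass the test of the common change. *Mgst1* was at 0.946 of its control with sevoflurane and 0.858 with desflurane. *Mgst3* had 144, 103, 154 and 122 TPM and *Mgst2* had 158, 125, 156 and 161 TPM. The 6 h values of *Mgst3* were both below both controls (adjusted p = 0.101 by limma).

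**Figure D4:**
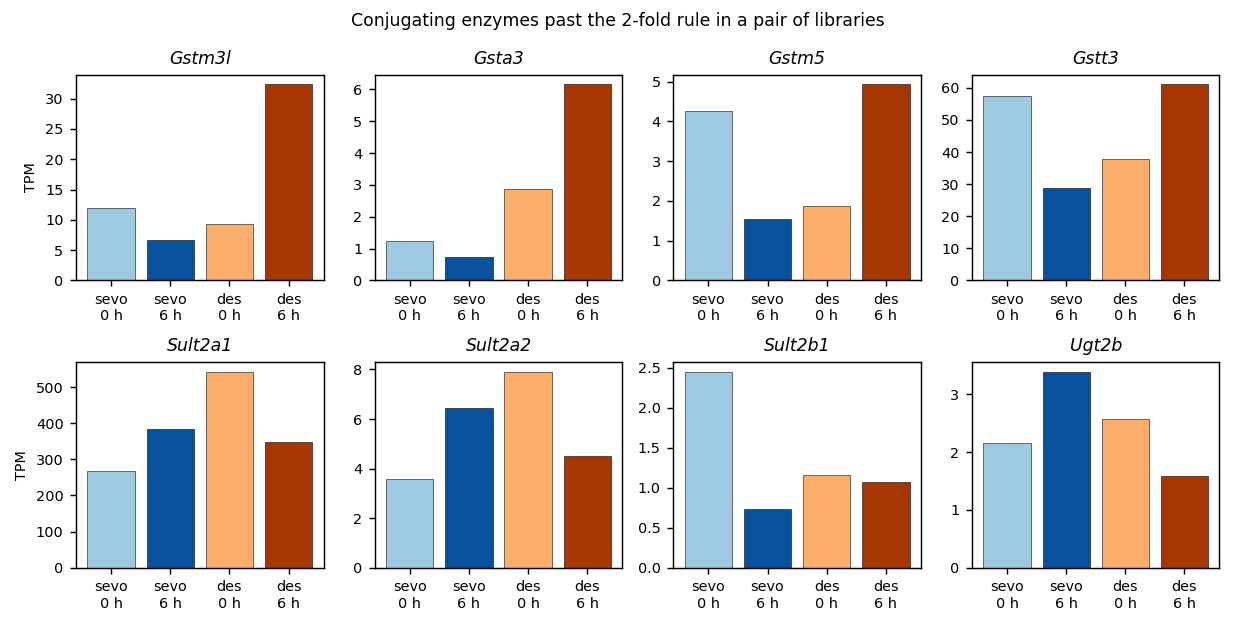
Level in TPM (linear axes from 0, each gene on its own scale) of the 8 members called higher or lower by the rule of size in any of the 4 comparisons, 1 bar per library. *Gstm3l* is set apart by desflurane 6 h, whereas *Sult2a1* and *Sult2a2* are high in desflurane 0 h and *Sult2b1* in sevoflurane 0 h.

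Genes that supply, accompany or regulate these reactions were taken from a list of 57, of which 52 had a mean of at least 1 TPM. In the common change 6 of the 52 rose and 7 fell, where 3.96% of all genes rose and 2.98% fell. Among 16 genes of cofactor supply 0 rose and 3 fell. *Ugdh*, which makes UDP-glucuronic acid, fell by 0.65 ± 0.15 on the log2 scale (adjusted p = 0.0293 by limma), with 90.9, 50.8, 97.2 and 70.2 TPM, so the gene for the cofactor's enzyme and the *Ugt1a* genes had opposite directions. *Gclm*, a subunit of the enzyme that starts glutathione synthesis, had 109, 63.3, 155 and 86.7 TPM and fell (adjusted p = 0.00556 by limma). *Cth*, which forms cysteine, fell as well, with 516, 113, 329 and 179 TPM (adjusted p = 0.00497 by limma).

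Of 9 genes of other conjugation reactions 2 rose and 1 fell. *Nnmt* and *Inmt*, methyltransferases of nicotinamide and of indoles, had 25.7, 75.4, 22.8 and 73.4 TPM and 39.8, 105, 40.2 and 106 TPM, so both were higher at 6 h in every pairing of libraries. *Baat*, which joins bile acids to taurine and glycine, had 1077, 508, 1153 and 459 TPM and fell. Among 7 genes of glutathione use and of breakdown of its products *Acy3* rose and *Gpx1* fell (1162, 668, 1477 and 828 TPM). Of 8 genes of deconjugation and export 0 passed.

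Regulators made up 12 of the list, and 3 rose and 2 fell. *Nr1i2*, the pregnane X receptor, had 26.0, 99.7, 34.1 and 90.9 TPM, a common change of 1.64 ± 0.17 (log2, SE, adjusted p = 0.000319 by limma). *Ppara*, a receptor for fatty acids, and *Ahr*, the aryl hydrocarbon receptor, also rose, with 9.70, 32.1, 12.7 and 43.6 TPM and 8.92, 29.2, 20.6 and 37.9 TPM. *Nfe2l2* (NRF2, the factor of the antioxidant response) fell by 1.35 ± 0.15 on the log2 scale (adjusted p = 0.000541 by limma), with 78.6, 31.2, 62.6 and 23.0 TPM. *Nr3c1*, the glucocorticoid receptor, fell too, and *Nr1i3*, the constitutive androstane receptor, did not pass (25.8, 26.3, 44.0 and 29.6 TPM, adjusted p = 0.517 by limma). By the rule of size, 5 of the 52 genes were higher and 3 lower with each agent. Over all genes 4.52% were higher and 3.31% lower with sevoflurane, and 3.71% and 5.05% with desflurane. *Nnmt*, *Inmt*, *Nr1i2*, *Ppara*, *Baat* and *Nfe2l2* were called with both agents. *Ahr* was also called between the controls (2.31-fold), and sevoflurane 6 h was above desflurane 0 h by 1.41-fold. With sevoflurane *Ahr* and *Cth* were called besides, and with desflurane *Acy3* (higher) and *Nat2* (lower).

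**Figure D5:**
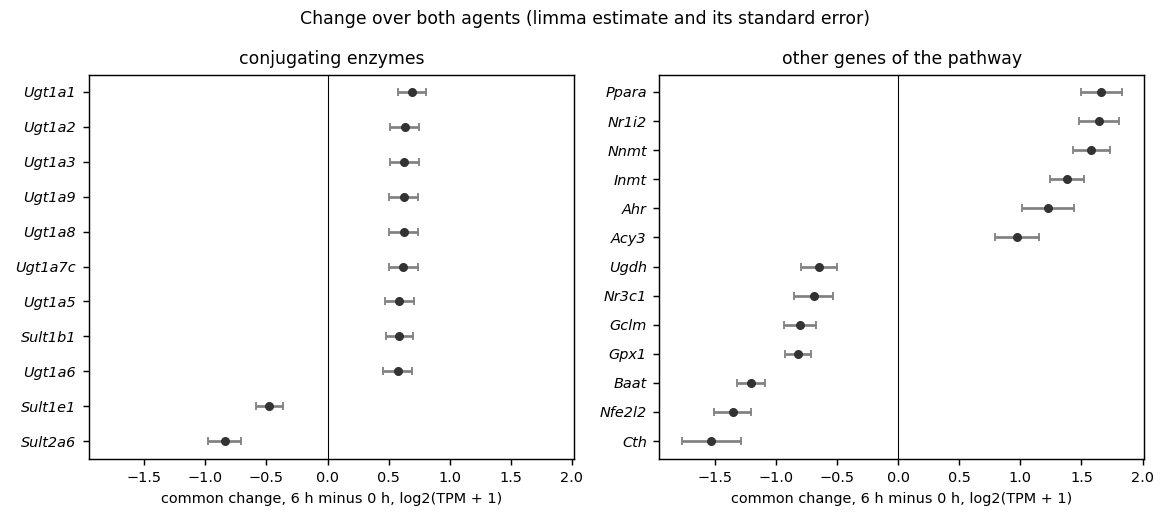
Change common to both agents (horizontal axis, 6 h minus 0 h, log2(TPM + 1)) of the genes with an adjusted p under 0.05, with points for the limma estimate and bars for its standard error, for 11 conjugating enzymes (left) and 13 genes of the pathway list (right). The *Ugt1a* symbols and *Sult1b1* lie above 0 and *Sult1e1* and *Sult2a6* below it, and the changes of *Nr1i2* and *Nfe2l2* are larger than those of any conjugating enzyme.

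Among the marker lists, those of red blood cells moved with the 6 h libraries. Their summed level was 453, 1214, 728 and 1343 TPM (4 of 4 found, 3 with a mean of at least 1 TPM), and their part in the results above was not tested. Summed Kupffer cell markers ranged from 215 to 286 TPM (6 of 6), endothelial markers from 44.4 to 55.0 TPM (4 of 5), stellate cell markers from 25.5 to 29.2 TPM (4 of 5) and lymphocyte markers from 4.41 to 8.38 TPM (4 of 4, *Cd3e* listed at 0 in both controls). Pancreatic acinar and kidney markers reached at most 0.245 and 0.0035 TPM.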

How the data were processed

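Liver RNA of 4 libraries, 1 per group as titled in the labels, was sequenced after TruSeq stranded total RNA preparation. The values are those of gene tables that the authors deposited for each library, and the submitters' processing notes name HISAT2, SAMtools, StringTie and rn6, without versions. Whether strand was used in counting is not stated. The deposited TPM column also holds loci assembled from the reads, so its total exceeds that of a TPM scale and it was handled as a score. The deposited FPKM values served as an alternative scale, and the deposited coverage (reads per base) gave depth. No read counts were used, so no counting interval is given. A TPM of 2 equals a coverage of 4.72 to 7.28.

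Rows of a symbol were summed and rows spanning 200 bp or less left out (Python 3.11.15, pandas 2.3.3, numpy 2.4.6). Pairwise differences carry no test. The common change was fitted with limma 3.58.1 (R 4.3.3) on log2(TPM + 1) with a pseudocount of 1, eBayes with trend, agent as block, two-sided, with Benjamini-Hochberg adjustment over 9201 genes (mean TPM at or above 1) and a threshold of 0.05. Its p-values rest on the spread between 2 pairs of libraries, moderated toward a spread pooled over genes. The prior had 8.34 degrees of freedom and the residual 1. Named with all 4 values were members called in any comparison, members past the threshold and the 3 most abundant of the UGT, SULT, GST and MGST families. Members and lists were chosen with earlier results of these data known, and 1 gene of the pathway list is not reported here. Both steps were tested on simulated data with changes larger than those of the members past the limma threshold. That test says nothing on changes of their size. Promoters came from RefSeq (GRCr8), in which 41 of the 49 members matched by symbol. Alternatives were pseudocounts, minimum levels, ratios, scaling, FPKM, exchanged controls, the mean of both controls, the fit without block or trend, and leaving out each library. Assembled loci and shared GST reads counted once were chosen after seeing the data.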

Additional observations from a re-analysis of the deposited data

Results flagged for a closer look

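In 3 members the 6 h library was below the control with sevoflurane and above it with desflurane, among the genes called by the rule of size with an agent. The log2(TPM + 1) change with desflurane exceeded that with sevoflurane by 2.46 for *Gstm3l*, by 2.09 for *Gstm5* and by 1.24 for *Gsta3*. With 1 library on each side the difference between the agents was not tested, and the doses differed. *Gstm5* and *Gsta3* also differed between the controls by more than 2-fold, and *Gstm3l* did not (9.32 against 11.96 TPM).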

How the results depend on the processing

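Every direction of the 11 members past the threshold held in the 12 settings of the limma fit. That was largely fixed beforehand, since the minimum mean, the block and the trend do not alter the estimate. In these members both 6 h libraries also lay on one side of both controls, so leaving out a library could not turn the sign. The number of members past the threshold did not hold. Over all genes the shares that rose and fell also dropped, from 3.96% and 2.98% to 2.68% and 1.59% without trend. With no minimum mean TPM they were 0.139% and 0.0440%. The settings were compared for the members only, not for the pathway list. The count of members that rose (9) was 0 with no minimum mean TPM and 0 with eBayes without trend, and leaving out each library in turn, with the agent out of the model, gave 0 to 3. The count of members that fell (2) was 0 with no minimum, 0 without trend, 1 with median-of-ratios scaling and 0 to 1 on leaving out each library. By library left out, the members that rose and fell numbered 0 and 0 without sevoflurane 0 h, 3 and 1 without sevoflurane 6 h, 1 and 0 without desflurane 0 h, and 0 and 1 without desflurane 6 h. These fits have fewer libraries and 1 group of a single library, assumed to vary like the other. The agent was the block of the fit, and without this replicate block, that is with no pairing of libraries by agent, 6 members rose and 1 fell. Adjusted p over the settings ranged from 0.00186 to 0.148 for *Sult2a6*, 0.00265 to 0.159 for *Ugt1a1*, 0.00604 to 0.335 for *Sult1b1* and 0.0191 to 0.289 for *Sult1e1*. For the rule of size with sevoflurane, a ratio of 1.5 gave 13 higher and 7 lower, a ratio of 3 gave 1 lower, and a minimum TPM of 5 or a minimum mean TPM of 5 gave 0 lower. With desflurane, a ratio of 1.5 gave 10 higher and 5 lower, a ratio of 3 gave 1 higher, a minimum mean of 5 gave 1 higher, and the control of the other agent gave 1 lower. With sevoflurane, *Gstt3* was called lower besides with median-of-ratios scaling and with a common total without *Rn7sl1*, and in place of *Sult2b1* on the FPKM scale. Exchanging the controls also changed which members were called, to *Gsta3* and *Sult2a6* (lower, sevoflurane), *Gsta3*, *Gsta6* and *Gstm3l* (higher, desflurane) and *Sult2b1* (lower, desflurane), so that only *Gsta3* and *Gstm3l* kept their call with desflurane. With the mean of both controls the calls were *Gsta3* and *Sult2a6* (lower, sevoflurane) and *Gsta3* and *Gstm3l* (higher, desflurane). *Gstm5* and *Sult2b1* were thus not called with sevoflurane in either setting. The exchange of controls turned the sign of *Sult2a1* and *Sult2a2* with both agents (*Sult2a2* to -0.26 and 0.27). It also turned that of *Gsta2* and *Gsta5* with desflurane (to 0.01). The cause was not tested. Depth limits the values near 1 TPM, most in sevoflurane 0 h.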
